A study of Mus musculus with 2 samples.

Results

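The 10 genes described here code for MHC class I molecules and for the proteins that cut, transport and load their peptides. They were named by symbol, with no cut-off on measured values but with earlier results of these data known, and all 10 were found among the 27998 genes of the files. H2-K1 and H2-D1 code for the classical heavy chains, B2m for the light chain that all class I molecules share, and H2-Q6, H2-Q7 and H2-T23 for nonclassical heavy chains. Tap1 codes for a subunit of the peptide transporter, Tapbp for tapasin, and Psmb8 and Psmb9 for catalytic subunits of the immunoproteasome. The measurements are 2 single-cell RNA libraries of lung cells of male mice, 1 labelled WT and 1 labelled IP-/-(IPKO), with no treatment named. In both, cells were sorted as positive for EpCAM, an epithelial surface protein, and negative for Sca-1, CD24, CD45, CD34 and CD31. The submitters call them alveolar type 2 (AT2) cells, the lung cells that make surfactant. The labels give neither the strain nor the age of the mice, nor how many mice went into a library, nor how the knockout was made.

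Class I molecules show peptides from inside a cell to CD8 T cells on its surface. The proteasome cuts proteins into peptides, and the immunoproteasome, in which inducible subunits replace the constitutive ones, favours peptides that fit class I. The TAP transporter carries them into the endoplasmic reticulum, where tapasin holds an empty heavy chain bound to beta-2 microglobulin (B2m) beside the transporter until a peptide fits. Nearly all nucleated cells make class I, and interferons and NF-kB raise it. H2-T23 codes for Qa-1, which presents leader peptides of classical heavy chains to receptors of natural killer (NK) cells, and H2-Q6 and H2-Q7 belong to the Qa-2 family.

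Each genotype has a single library, so the groups could not be tested against each other and no difference here has a replicate check. A ratio between the libraries is given as log2 of the level labelled IPKO divided by that labelled WT. Levels are UMIs of a gene per 1000000 UMIs (CPM), where a UMI is a tag that marks 1 captured RNA molecule. All intervals are exact 95% intervals and cover counting error only, so they do not hold the spread between mice or between libraries.

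The files held 8924 barcodes labelled WT, with 127287281 UMIs, and 10014 labelled IPKO, with 137471506 UMIs. After filters 6744 and 8070 cells remained, and 79 barcodes (0.885% and 0.789%) occurred in both libraries. IP is the usual name of the prostacyclin receptor, the product of Ptgir. In AT2-like cells Ptgir had 0 UMIs in the library labelled WT, which allows up to 0.0262 CPM at 3 counts. It had 257 UMIs (2.38 CPM, 2.10 to 2.69) in the library labelled IPKO. This goes against the labels. A 3' tag outside a deleted part of a gene can still be counted in a knockout, but why the library labelled WT had 0 UMIs was not tested. Each direction below holds for the libraries as labelled.

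AT2-like cells numbered 5979 and 6106, with medians of 18409 and 17154 UMIs per cell, and Sftpc, which codes for surfactant protein C, was at 212644 and 209810 CPM in them. All 11 AT2 markers were above 0 in both libraries. The libraries shared few AT2-like clusters: clusters 0 and 1 held 4386 and 1537 cells labelled WT against 144 and 36 labelled IPKO, and clusters 2 and 3 held 37 and 19 against 4778 and 1148. Cells of classes that the sort should exclude were also present: 48 and 47 endothelial-like cells, and an immune pool of 35 and 163 cells. In that pool were 11 and 79 T and NK cell-like, 13 and 42 macrophage and monocyte-like, 5 and 32 B cell-like and 6 and 10 neutrophil-like cells. Transitional-like cells, which carry markers of the state between AT2 and flat alveolar type 1 cells, numbered 380 and 1248.

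In the annotation of GRCm38, 9 of the 10 genes lay on chromosome 17 within 2.12 Mb. On the minus strand there were H2-K1 (ENSMUSG00000061232) at chr17:33996017-34000347, Psmb9 (ENSMUSG00000096727) at chr17:34181987-34187764 and H2-T23 (ENSMUSG00000067212) at chr17:36029773-36032855. On the plus strand there were Tapbp (ENSMUSG00000024308) at chr17:33915899-33929292, Tap1 (ENSMUSG00000037321) at chr17:34187553-34197225, Psmb8 (ENSMUSG00000024338) at chr17:34197721-34201454, H2-D1 (ENSMUSG00000073411) at chr17:35262730-35267499, H2-Q6 (ENSMUSG00000073409) at chr17:35424850-35430055 and H2-Q7 (ENSMUSG00000060550) at chr17:35439155-35443773. B2m (ENSMUSG00000060802) stood apart at chr2:122147686-122153083, on the plus strand. Tap1 and Psmb9 overlap at their starts on opposite strands, and Tapbp overlaps Zbtb22 on its own strand.

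The heavy chain genes are near copies of each other, which matters for how reads were assigned. Over the longest open reading frame, H2-Q6 and H2-Q7 were identical at 95.4% of 981 aligned bases, and H2-K1 and H2-D1 at 91.5% of 1080. The least alike pair, H2-D1 and H2-T23, was identical at 81.9%. A 3' library reads the end of a transcript, so stretches of 90 bases in the last 500 bases of each gene's transcripts were compared with all other transcripts. Of these stretches in H2-Q6, 26.9% occurred unchanged in another gene, and 21.4% occurred in H2-Q7. The share was 4.73% for H2-Q7, 13.4% for H2-T23, 0.151% for H2-K1 and 0 for the other 6 genes. Values of H2-Q6 and of its split from H2-Q7 are therefore uncertain.

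The promoters of 6 genes are shown because those of H2-K1, H2-D1, H2-Q6 and H2-Q7 carry NF-kB, short IRF and CCAAT matches in the same order, while B2m and H2-T23 carry a longer interferon element. Sequences are from RefSeq on GRCm38.p6, 5' to 3' on the gene's strand. Capitals mark matches, on either strand, to an NF-kB element (GGG, any 2 bases, then TTCCC), a short IRF element (TTTCNNTT), the ISRE core that holds it (TTTC, any 2 bases, then TTTC), the X2 box core (TGACG) and the CCAAT box (CCAAT). The short IRF element and the X2 core were written after the promoters had been seen. The stretches run from 12 bases before the first NF-kB or ISRE match to 5 bases after the last CCAAT match.
H2-K1, chr17:34000330-34000470, minus strand: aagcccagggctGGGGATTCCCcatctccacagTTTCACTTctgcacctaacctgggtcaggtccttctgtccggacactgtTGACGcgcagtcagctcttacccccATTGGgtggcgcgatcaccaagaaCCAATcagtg
H2-D1, chr17:35262911-35263050, plus strand: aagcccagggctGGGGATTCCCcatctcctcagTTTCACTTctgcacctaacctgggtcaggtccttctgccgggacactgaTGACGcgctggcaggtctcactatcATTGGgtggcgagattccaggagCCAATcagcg
H2-Q6, chr17:35424665-35424804, plus strand: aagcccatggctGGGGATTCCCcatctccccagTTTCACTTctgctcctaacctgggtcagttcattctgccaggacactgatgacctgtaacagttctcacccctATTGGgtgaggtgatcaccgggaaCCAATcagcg
H2-Q7, chr17:35439010-35439148, plus strand: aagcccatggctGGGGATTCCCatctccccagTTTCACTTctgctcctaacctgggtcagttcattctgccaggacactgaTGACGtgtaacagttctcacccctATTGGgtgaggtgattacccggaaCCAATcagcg
B2m, chr2:122147536-122147643, plus strand: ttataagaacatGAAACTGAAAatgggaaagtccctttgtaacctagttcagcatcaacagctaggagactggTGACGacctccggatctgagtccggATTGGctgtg
H2-T23, chr17:36032744-36032837, minus strand: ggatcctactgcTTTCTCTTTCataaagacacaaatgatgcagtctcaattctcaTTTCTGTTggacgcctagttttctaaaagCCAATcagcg

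The NF-kB match GGGGATTCCC was the same 10 letters in H2-K1, H2-D1, H2-Q6 and H2-Q7. The short IRF match TTTCACTT began 21 bases after the first letter of the NF-kB match in H2-K1, H2-D1 and H2-Q6 and 20 bases after it in H2-Q7. The X2 core stood in H2-K1, H2-D1 and H2-Q7 and not in the H2-Q6 window. In windows of 300 bases (250 before to 50 after the start), the NF-kB element was in 4 of the 10 genes and in 1.77% of 32544 RefSeq windows. These 4 heavy chain genes are near copies with much the same promoter sequence, so their matches are not independent and no excess is read from the count. The ISRE core was in 2 genes (B2m and H2-T23) and in 3.45% of windows, and the short IRF element was in 6 genes and 23.9% of windows. CCAAT stood in 9 genes and 37.4% of windows, and TGACG in 6 genes and 20.9% of windows. The windows of Tap1 and Psmb9 share 275 bases, so the X2 core that both hold is the same one. Tapbp and Psmb8 held none of the NF-kB, IRF, ISRE or X2 letters, and Psmb8 held the only match to a GAS element (TTCNNNGAA, in 8.33% of windows). A match says only that these letters are in the window, and not that a factor binds there.

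In AT2-like cells 9 of the 10 genes had a log2 ratio of at least 0.32, that is, were higher where labelled IPKO, and none was lower by as much. Of the 8467 genes whose mean reached 5 CPM, 8.21% were higher and 4.96% lower by that size. The median log2 ratio of the 10 genes was 0.66, against 0.05 over all genes. At a stricter 0.58, 6 of the 10 were higher, against 1.59% of all genes. Scaling the libraries by median-of-ratios size factors moved the split over all genes to 4.88% higher and 7.68% lower, and by TMM factors to 5.20% and 6.80%. The 10 genes were all counted, whatever their level, and H2-Q6 passed the 5 CPM mean only through the library labelled IPKO. UMI totals in these cells were 114378747 and 107964791, so counting error was small, but each ratio rests on 1 library a side.

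The classical heavy chain genes had the smallest ratios among the heavy chain genes. H2-K1 was at 492 CPM (488 to 496) in the library labelled WT and 670 CPM (665 to 675) in the library labelled IPKO, a log2 ratio of 0.45 (0.43 to 0.46). H2-D1 was at 426 and 583 CPM, a log2 ratio of 0.45 (0.44 to 0.47). The ratios of both genes lay above the range of -0.32 to 0.38 that held all genes between the 5th and the 95th percentile. B2m, the shared light chain, was at 163 CPM (161 to 166) and 263 CPM (260 to 266), a log2 ratio of 0.69 (0.66 to 0.72). The light chain thus differed more than both classical heavy chains, and the intervals of the ratios did not overlap.

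Among the nonclassical heavy chain genes, H2-Q6 and H2-Q7 had the largest ratios of the 10. H2-Q7 was at 7.24 CPM (6.75 to 7.75) and 19.1 CPM (18.3 to 19.9), a fold of 2.64 (log2 1.40, 1.28 to 1.52). H2-Q6, its near copy, was at 4.63 and 11.1 CPM (log2 1.26, 1.12 to 1.41), from 530 and 1202 UMIs. The intervals of these 2 ratios overlapped, so their order is not given. H2-T23 was at 31.1 and 57.3 CPM, a log2 ratio of 0.88 (0.82 to 0.94) that lay above B2m and below H2-Q6 and H2-Q7.

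The peptide loading genes split. Tap1 was at 7.13 CPM in the library labelled WT and 10.97 CPM in the library labelled IPKO (log2 0.62, 0.49 to 0.75). Tapbp was at 75.7 and 78.0 CPM (log2 0.04, -0.00092 to 0.09) and was the only gene of the 10 near a ratio of 1. Its sign turned under other settings, with a range of -0.03 to 0.08. Of the immunoproteasome subunits, Psmb8 was at 32.0 and 47.6 CPM (log2 0.57, 0.51 to 0.63) and Psmb9 at 8.79 and 15.4 CPM (log2 0.81, 0.70 to 0.92). The other 9 genes stayed higher in the library labelled IPKO under each of the other clusterings, scalings and cell filters run on AT2-like cells.

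**Figure D1:**
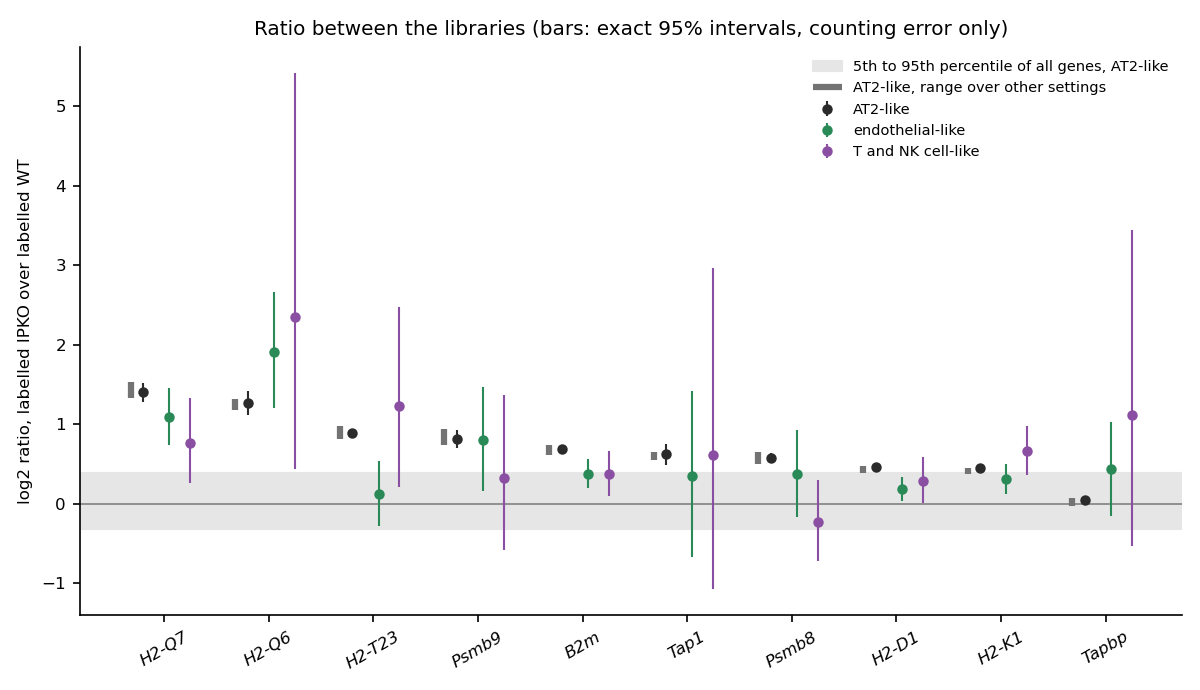
Log2 ratio of each gene between the libraries (y axis, labelled IPKO over labelled WT) in AT2-like, endothelial-like and T and NK cell-like cells, with exact 95% counting intervals as thin bars, grey bars for the range over the other settings and a grey band for the 5th to 95th percentile of all genes in AT2-like cells (-0.32 to 0.38). In AT2-like cells 9 genes sit above the band and Tapbp, at 0.04, sits inside it.

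Other things moved with the library as well. The AT2-like clusters mostly of the library labelled WT were led by Nr1d1 and Dbp (cluster 0), which belong to the circadian clock, or by Mfsd2a and Lrg1 (cluster 1). Those mostly of the library labelled IPKO were led by the heat shock genes Hspa1a and Hspa1b (cluster 2) or by Ifi27l2a and Lrg1 (cluster 3), where H2-Q7 was also among the 10 leading genes. Ly6a, which codes for the Sca-1 protein that the sort selected against, was at 2.29 and 6.12 CPM in AT2-like cells. The 25 T and NK cell markers summed to 0.49 and 1.78 CPM in AT2-like cells, with 8 and 3 of them at 0 UMIs, against 3047 and 10424 CPM in the immune pool. The 26 endothelial markers summed to 497 and 467 CPM in AT2-like cells, against 43566 and 35168 CPM in endothelial-like cells. Pecam1, the gene of CD31, was at 0.49 and 0.40 CPM in AT2-like cells and 1472 and 1189 CPM in endothelial-like cells. Ptprc, the gene of CD45, was at 0.05 and 0.19 CPM in AT2-like cells. In the 5874 and 5975 AT2-like cells with no UMI of 7 endothelial and immune genes, a comparison added after seeing the data, 9 of the 10 genes were again higher, against 8.34% of all genes in those cells. The 5 erythroid markers were at 0 UMIs in the immune pool labelled WT and summed to 10265 CPM in that labelled IPKO, and to 0.20 and 7.47 CPM in AT2-like cells. The part of the clock, heat shock and erythroid genes in the ratios was not tested.

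Ratios were also taken within and between AT2-like clusters. Inside cluster 0, the 144 cells labelled IPKO against the 4386 labelled WT had 6 of the 10 genes higher by at least 0.32 (16.2% of all genes), with a median of 0.49. The log2 ratio there was 1.30 for H2-Q7 (34 and 506 UMIs), 0.66 for B2m and 0.25 for H2-K1 (559 against 469 CPM). Cells of cluster 2 labelled IPKO, set against the AT2-like cells labelled WT as a whole, had 9 higher (9.81% of all genes) and a median of 0.62. Cluster 3 had 9 higher (6.29% of all genes) and a median of 0.87. Clusters 2 and 3 held 4778 and 1148 of the 6106 AT2-like cells labelled IPKO. Both comparisons therefore repeat parts of the main one and are no separate check of it. In cluster 3, H2-Q7 reached 31.3 CPM, H2-K1 816 CPM and B2m 319 CPM, the highest levels of these 3 genes among the AT2-like clusters. Within the library labelled WT, cluster 1 was above cluster 0 for H2-K1 (554 and 469 CPM) and H2-Q7 (10.3 and 6.11 CPM) and below it for H2-T23 (26.8 and 32.5 CPM) and Psmb9 (7.07 and 9.46 CPM).

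Per cell, the level was spread over the AT2-like population. With each cell thinned to 3000 UMIs, which left out 12 and 7 shallower cells, the 10 genes together gave a mean of 3.71 UMIs (SD 2.46 over 5967 cells) in the library labelled WT and 5.13 (SD 3.23 over 6099 cells) in the library labelled IPKO. The 5th, 50th and 95th percentiles were 1, 3 and 8 UMIs against 1, 4 and 11. Cells with none of these UMIs made up 4.41% and 2.03%. The median and the 95th percentile thus lay higher where labelled IPKO. The variance over the mean was 1.63 and 2.04.

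**Figure D2:**
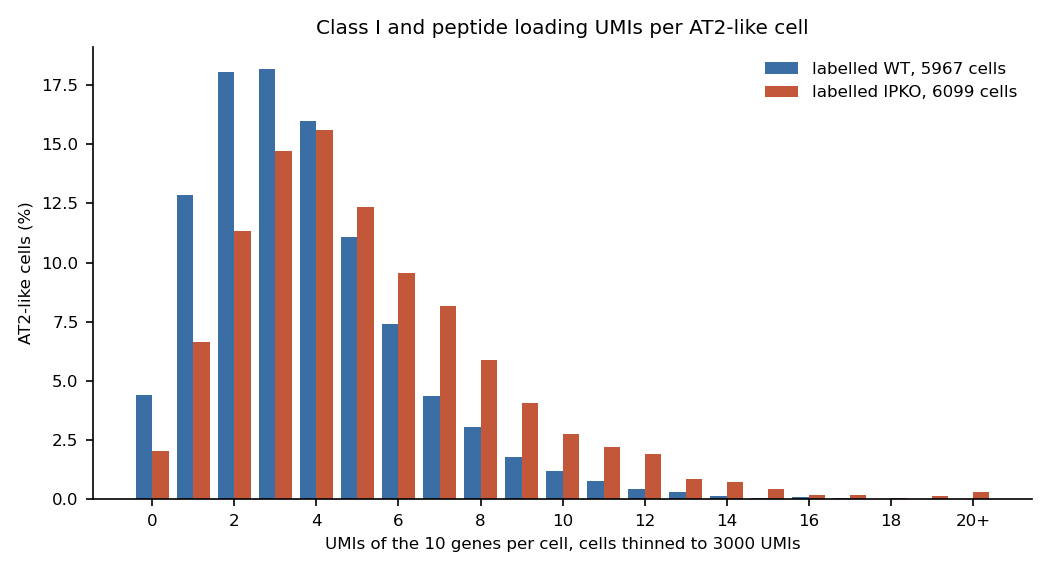
Share of AT2-like cells (y axis, percent) by the summed UMIs of the 10 genes per cell (x axis), with every cell thinned to 3000 UMIs, for 5967 cells labelled WT and 6099 labelled IPKO. The most frequent value is 3 UMIs (18.2% of cells) in the library labelled WT and 4 UMIs (15.6% of cells) in the library labelled IPKO, and the tail to the right is longer in the latter.

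Shares of AT2-like cells with a UMI at that depth had the same direction as the levels. At this depth 1 UMI stands for more than the mean level of most of these genes, so no change is read from the shares alone. H2-K1 was detected in 73.2% (72.0 to 74.3) of cells labelled WT and 80.5% (79.5 to 81.5) labelled IPKO, and B2m in 35.2% (34.0 to 36.5) and 50.1% (48.9 to 51.4). H2-T23 was detected in 8.48% and 15.1% of cells, Psmb8 in 8.63% and 12.8%, Psmb9 in 2.50% and 4.25%, and Tap1 in 2.15% and 3.74%. H2-Q7 was detected in 1.99% (1.65 to 2.38) and 4.38% (3.88 to 4.92) and H2-Q6 in 1.07% and 2.84%. Tapbp was detected in 20.1% (19.1 to 21.2) and 20.7% (19.7 to 21.7), whose intervals overlap. Pecam1, which AT2 cells should lack, was detected in 0.151% and 0.213% of the same cells, and Ptprc in 0.0503% and 0.0328%, below all 10 genes. Without thinning, H2-Q7 was detected in 8.75% and 19.0% and H2-K1 in 99.4% and 99.6% of cells.

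Between single AT2-like cells the 10 genes varied together only weakly. Over the 45 pairs, Pearson's r across thinned cells ran from -0.02 to 0.17 in the 5967 cells labelled WT and from -0.02 to 0.25 in the 6099 labelled IPKO. The highest value in each library was for H2-K1 with H2-D1 (0.17 and 0.25). H2-K1 with B2m was at 0.15 and 0.24. Cells of 1 library are not replicates, and counts this sparse hold r low, so these values only describe the libraries.

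By point level, endothelial-like cells were highest for most of the 10 genes, in part with intervals that overlap the next class, as given below. Against AT2-like cells of the same library, 10 of 10 were higher by a log2 ratio of at least 1 in both libraries, with medians of 3.75 (labelled WT) and 3.31 (labelled IPKO). Among all genes whose mean reached 50 CPM, 50.5% and 45.3% were higher by as much. Tap1 did not reach that mean in the library labelled WT, so 9 of the 10 genes stand against the share there. H2-Q6, H2-Q7, Psmb8 and Psmb9 reached it only through endothelial-like cells, as did H2-T23 labelled WT and Tap1 labelled IPKO. Their place in these counts was thus set in part by that filter. The 11 AT2 markers made up 273829 and 265879 CPM of AT2-like cells. The median over all genes was 1.01 and 0.88. Taking the AT2 markers, mitochondrially encoded genes and Gm42418 out of the totals, a setting added after seeing the data, gave medians of 3.10 and 2.76 for the 10 genes. These levels rest on 48 and 47 cells with 177961 and 195065 UMIs. Sftpc was at 5344 and 23849 CPM in these cells, so AT2 transcripts were also among their UMIs.

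The difference between endothelial-like and AT2-like cells was widest for H2-Q7, of the Qa-2 family. H2-Q7 was at 539 CPM (437 to 659) in endothelial-like cells labelled WT and 1148 CPM (1003 to 1309) labelled IPKO, log2 ratios of 6.22 (5.90 to 6.53) and 5.91 (5.70 to 6.11) over AT2-like cells. At 3000 UMIs per cell it was detected in 20 of 25 and 24 of 25 cells. H2-Q6 was at 118 and 441 CPM, log2 ratios of 4.67 (3.97 to 5.30, from 21 UMIs) and 5.31 (4.97 to 5.62). In the library labelled WT its interval overlaps those of Psmb9, H2-T23, B2m and Tap1. H2-T23 was at 528 and 574 CPM, log2 ratios of 4.09 and 3.32. The classical heavy chains were closer to the AT2 level: H2-D1 was at 3534 and 4009 CPM (log2 3.05 and 2.78) and H2-K1 at 2248 and 2794 CPM (log2 2.19 and 2.06). B2m was at 2495 and 3240 CPM, below H2-D1. Its log2 ratios over AT2-like cells, 3.93 and 3.62, lay above those of both classical heavy chains, with intervals that overlap those of H2-T23.

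Loading genes were also higher in endothelial-like cells. Tap1 was at 84.3 and 108 CPM (log2 3.56 and 3.30 over AT2-like cells), Psmb8 at 281 and 364 CPM (log2 3.13 and 2.94) and Psmb9 at 180 and 313 CPM (log2 4.36 and 4.34). Tapbp was at 236 and 318 CPM (log2 1.64, 1.17 to 2.08, and 2.03, 1.64 to 2.39), intervals that overlap those of H2-K1 in both libraries. Tap1 rests on 15 and 21 UMIs.

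By the median of the 10 genes, the immune pool lay between endothelial-like and AT2-like cells. Psmb8 went the other way, at 294 and 413 CPM in the pool and 281 and 364 CPM in endothelial-like cells, with overlapping intervals. Against AT2-like cells, 8 of 10 genes were higher by at least 1 in the library labelled WT (41.7% of all genes) and 9 of 10 in the library labelled IPKO (32.7% of all genes), with medians of 2.12 and 2.82. Of the 7 and 9 genes that reached the mean of 50 CPM behind those shares, 5 and 8 were higher by as much, and H2-Q6 labelled WT rests on 3 UMIs. H2-Q7 and Psmb8 reached that mean only through the pool, as did H2-T23 labelled WT and H2-Q6 and Psmb9 labelled IPKO. Tapbp was below that size in both (log2 0.39, -0.23 to 0.94, and 0.46, 0.18 to 0.73), and so was H2-K1 in the library labelled WT (log2 0.80, 0.61 to 0.99). T and NK cell-like cells had H2-Q7 at 494 and 841 CPM and Psmb8 at 584 and 499 CPM. Macrophage and monocyte-like cells had 0 and 42 UMIs of H2-Q7 (up to 19.6 CPM at 3 counts, and 107 CPM) and Psmb8 at 164 and 359 CPM. The make-up of this class differed between the libraries, as given below. B cell-like cells labelled IPKO had H2-Q6 at 208 CPM and H2-Q7 at 299.6 CPM, from 32 and 46 UMIs.

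**Figure D3:**
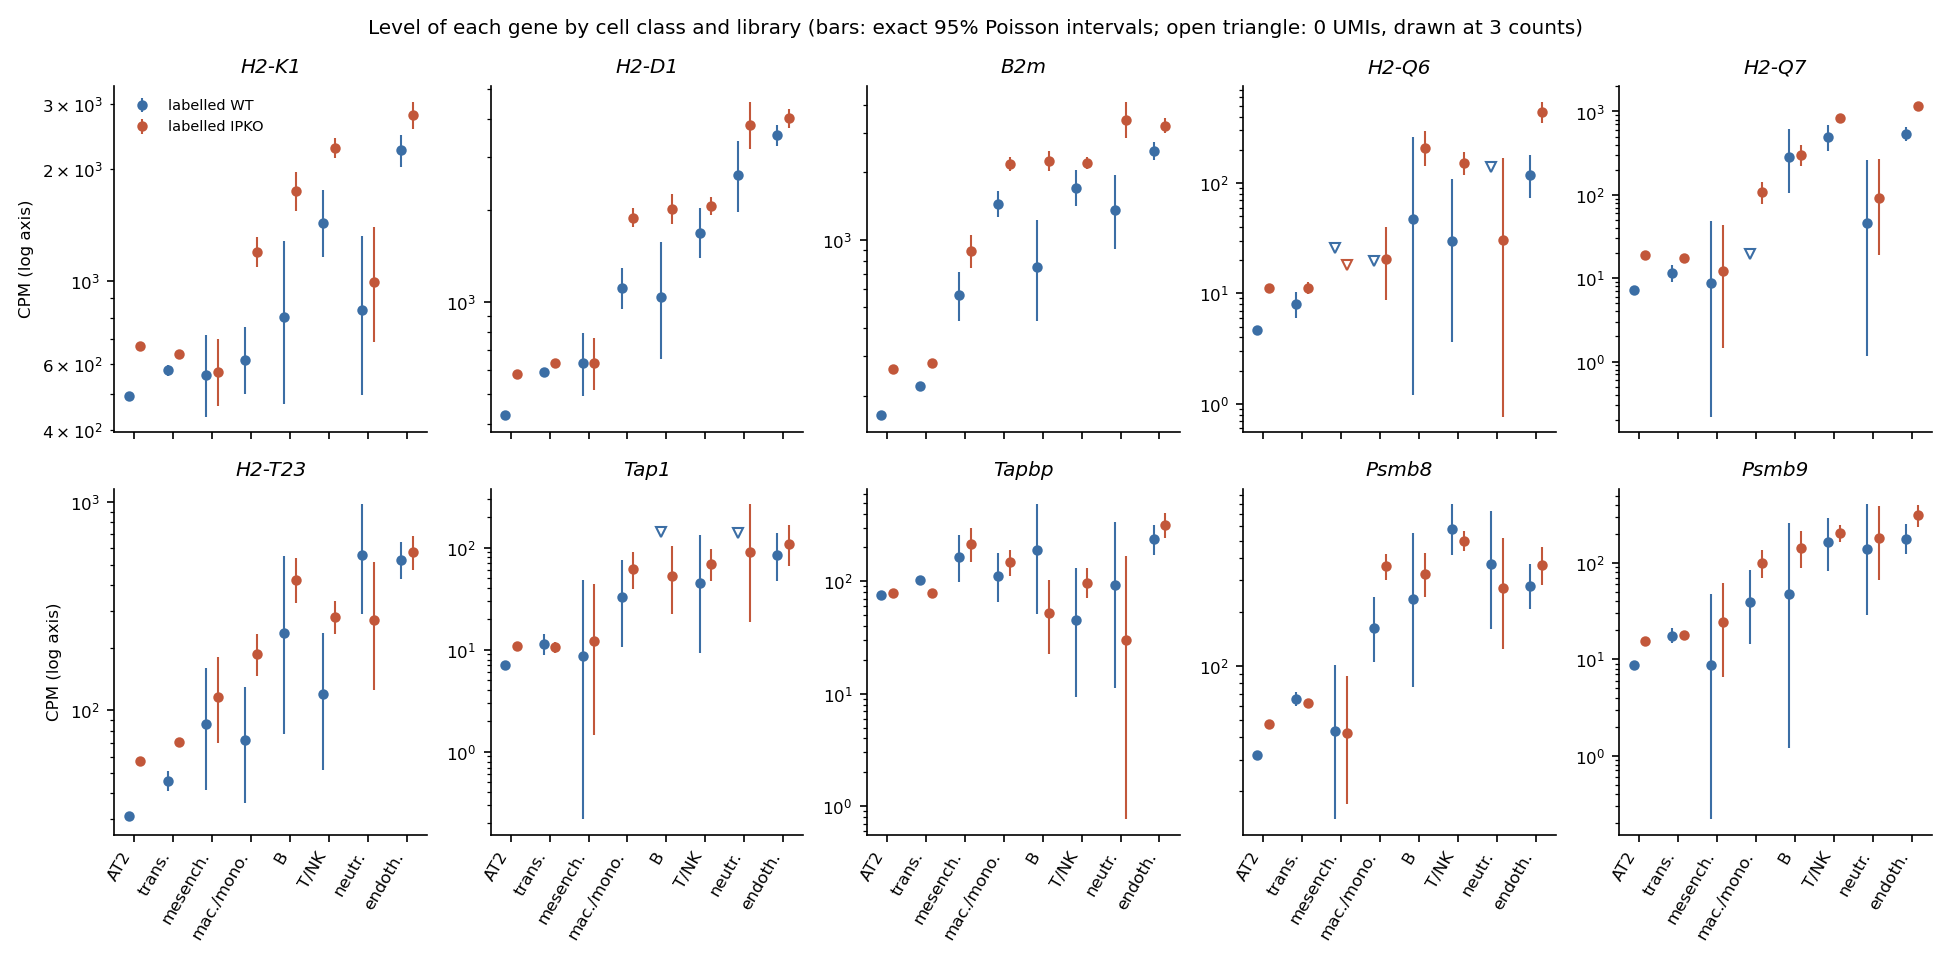
Level of each of the 10 genes (y axis, CPM on a log axis, 1 panel a gene) in 8 cell classes, for the libraries labelled WT and IPKO, with exact 95% Poisson intervals; open triangles stand for 0 UMIs and are drawn at 3 counts. By point level, endothelial-like cells are highest for most genes, in part with intervals that overlap the next class. H2-Q7 is at 539 and 1148 CPM in them, against 7.24 and 19.1 CPM in AT2-like cells.

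Over all classes of at least 10 cells, 9 labelled WT and 13 labelled IPKO, endothelial-like cells came first by point level for 8 of the 10 genes in each library. How many of all genes come first or last in a class was not counted, so the counts here only describe levels. The exceptions labelled WT were Psmb8, first in T and NK cell-like cells (584 CPM), and Tapbp, first in 20 unnamed cells (288 CPM, 183 to 433, an interval that holds the endothelial-like level of 236 CPM). The exceptions labelled IPKO were Psmb8, first in 37 unnamed cells (579 CPM, 492 to 678, with T and NK cell-like cells at 499 CPM), and B2m, where 10 neutrophil-like cells were at 3452 CPM (2848 to 4147) and endothelial-like cells at 3240 CPM (2992 to 3503). Of the unnamed cells, 17 in each library were led by Vwf, Tm4sf1 and Lyve1, of which Vwf is among the endothelial markers. Under another clustering resolution a Vwf-led cluster was named endothelial-like, so Tapbp labelled WT is no clear exception. The other 3 and 20 unnamed cells were led by S100a4, Cd52 and C1qb. Low-RNA cells came last for 6 of 10 genes labelled WT and 5 of 10 labelled IPKO, and AT2-like cells for none. Leaving out low-RNA, club, ciliated, cycling and unnamed cells, 6 classes labelled WT and 8 labelled IPKO remained, and AT2-like cells then came last for 6 and 4 of the 10 genes. Of the neighbours in these shorter orders, 32 of 50 pairs labelled WT and 50 of 70 labelled IPKO had overlapping intervals. Among them were first places of endothelial-like cells. These were H2-Q6, H2-Q7, Tap1, Tapbp and Psmb9 labelled WT, and H2-D1, H2-T23, Tap1, Tapbp and Psmb9 labelled IPKO. Overlap of separate intervals does not show that the levels are equal, and no order is read for these pairs. For H2-K1 in the library labelled IPKO this order was endothelial-like (2794 CPM), T and NK cell-like (2279), B cell-like (1745), macrophage and monocyte-like (1199), neutrophil-like (999), AT2-like (670), transitional-like (637) and mesenchymal-like (571). In it only the macrophage and neutrophil neighbours, and the transitional and mesenchymal neighbours, overlapped.

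Transitional-like cells were near AT2-like cells in level. H2-K1 was at 577 and 637 CPM, B2m at 220 and 279 CPM, and Psmb8 at 65.6 and 62.0 CPM, above its AT2-like level in both libraries (log2 1.04 and 0.38). Over AT2-like cells, 2 of 10 genes (Psmb8 and Psmb9) were higher by at least 1 in the library labelled WT (3.13% of all genes) and 0 of 10 in the library labelled IPKO (0.99% of all genes). Psmb8 and Psmb9 were both under the mean of 50 CPM behind those shares. Between the libraries, 4 genes were higher and 1 (Tapbp, log2 -0.36) lower by at least 0.32 (12% and 11.2% of all genes), with a median of 0.12. That count ran from 1 to 9 and the median from -0.055 to 0.46 over 7 other clusterings and filters, so no direction is given for this class.

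Ratios between the libraries outside the epithelium differed by class. In endothelial-like cells 7 of 10 had a log2 ratio of at least 0.32 (23.7% of all genes), 6 had intervals above 0, and the median was 0.38 against -0.04 over all genes. H2-Q6 had 21 and 86 UMIs (118 and 441 CPM, log2 1.90, 1.20 to 2.66) and H2-Q7 96 and 224 UMIs (log2 1.09, 0.74 to 1.45). H2-K1 (log2 0.31, 0.13 to 0.50), H2-D1 (0.18, 0.03 to 0.34) and B2m (0.38, 0.20 to 0.56) had smaller ratios than in AT2-like cells, and the intervals of H2-D1 and B2m did not overlap those in AT2-like cells. H2-T23 was at 528 and 574 CPM (log2 0.12, -0.29 to 0.53), an interval below its AT2-like one. The Sftpc level of these cells also differed between the libraries, and its part in the ratios was not tested.

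In T and NK cell-like cells 7 of 10 genes were higher by at least 0.32 (30.1% of all genes), with a median of 0.64, from 11 and 79 cells. H2-K1 was at 1437 and 2279 CPM (log2 0.66, 0.36 to 0.98) and H2-Q7 at 494 and 841 CPM (log2 0.77, 0.25 to 1.33). Psmb8 was the only gene of the 10 with a lower level (584 and 499 CPM, log2 -0.23, -0.72 to 0.30), and its interval spans 0. In macrophage and monocyte-like cells, from 13 and 42 cells, H2-K1 was at 615 and 1199 CPM (log2 0.96, 0.64 to 1.30) and H2-D1 at 1113 and 1895 CPM (log2 0.77, 0.53 to 1.02). This class joined clusters in unlike proportions: 11 and 15 cells were led by Chil3 and Ear2, and 2 and 27 cells by Plac8 and Ms4a6c. The part of this make-up in the ratios was not tested. Over the immune pool 9 of 10 were higher (20.7% of all genes) with a median of 0.95, but its make-up differed between the libraries. Of the 10 genes, 9 reached the mean of 50 CPM behind that share, and 8 of these were higher. T and NK cell-like cells were 11 of 35 cells in one and 79 of 163 in the other. In mesenchymal-like cells, from 19 and 26 cells, H2-K1 was at 562 and 571 CPM (log2 0.02, -0.45 to 0.50) and H2-D1 at 631 and 632 CPM (log2 0.0024, -0.44 to 0.45). B2m was at 562 and 887 CPM there (log2 0.66, 0.23 to 1.10), the only interval of the 10 that did not span 0.

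The balance of class I transcripts differed between classes. Because a UMI marks 1 RNA molecule whatever the transcript's length, UMIs of heavy chain genes were set against UMIs of B2m, and only the difference between classes is read from this, not the balance itself. AT2-like cells had 5.62 (5.53 to 5.71) H2-K1 and H2-D1 UMIs per B2m UMI in the library labelled WT and 4.76 (4.70 to 4.82) in the library labelled IPKO. Transitional-like cells had 5.31 and 4.55. Endothelial-like cells had 2.32 (2.07 to 2.60) and 2.10 (1.91 to 2.31), T and NK cell-like cells 1.83 and 1.97, and macrophage and monocyte-like cells 1.20 (1.00 to 1.44) and 1.42 (1.30 to 1.55). In every one of these non-epithelial classes the intervals lay below those of AT2-like cells of the same library. Thus B2m took a smaller share of class I UMIs in AT2-like cells of both libraries.

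H2-K1 made up 53.6% (53.3 to 53.9) and 53.5% (53.2 to 53.7) of H2-K1 and H2-D1 UMIs in AT2-like cells, intervals that overlap between the libraries. It was 38.9% (35.9 to 41.9) and 41.1% (38.4 to 43.8) in endothelial-like cells and 35.6% and 38.8% in macrophage and monocyte-like cells. In T and NK cell-like cells it was 45.9% (39.0 to 52.9) and 52.4% (50.2 to 54.6). The latter interval, labelled IPKO, holds the AT2-like share. H2-Q7 made up 61.0% (58.3 to 63.6) and 63.2% (61.5 to 64.8) of H2-Q6 and H2-Q7 UMIs in AT2-like cells. In endothelial-like cells it made up 82.1% (73.9 to 88.5) and 72.3% (66.9 to 77.2), and in T and NK cell-like cells 94.3% (80.8 to 99.3) and 84.7% (81.0 to 87.9). In B cell-like cells labelled IPKO it made up 59.0% (47.3 to 70.0), an interval that holds the AT2-like share. Reads that fit both genes could shift these last shares.

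**Figure D4:**
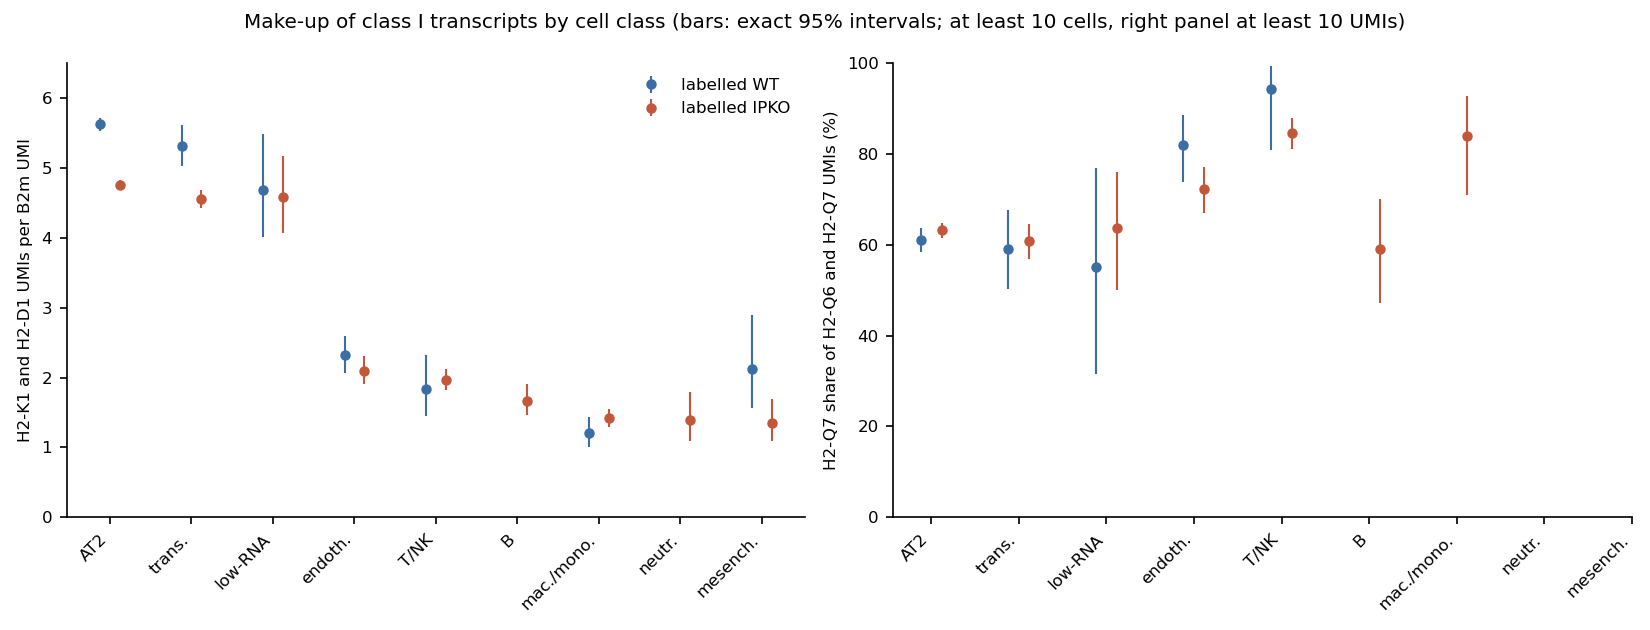
Left, H2-K1 and H2-D1 UMIs per B2m UMI (y axis) by cell class and library; right, the H2-Q7 share of H2-Q6 and H2-Q7 UMIs (y axis, percent); bars are exact 95% intervals, for classes with at least 10 cells and, on the right, at least 10 UMIs. AT2-like cells sit at 5.62 and 4.76 on the left, while endothelial-like and immune-like cells sit between 1.20 and 2.32.

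The rest of the pathway did not follow as a whole. The counts below stand against the same 8.21% of all genes higher and 4.96% lower in AT2-like cells. Of the other class I genes, 3 were measured in AT2-like cells (a mean of 5 CPM or more); 2 were higher where labelled IPKO by 0.32 or more and none lower: H2-Q4 was at 20.5 and 34.4 CPM (log2 0.74) and H2-T22 at 10.8 and 14.4 CPM (log2 0.42), while H2-Q2 was at 10.4 and 11.1 CPM (log2 0.09). Of 2 measured class I-like genes, Hfe, which takes part in iron sensing, was at 6.83 and 9.57 CPM (log2 0.49) and Fcgrt, the neonatal Fc receptor, at 17.2 and 17.4 CPM (log2 0.02). Both of these heavy chains also pair with B2m.

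Of 18 measured genes of peptide supply and loading beside the 10, 1 was higher, 5 were lower and the median was -0.07. The higher one was Tap2, the partner subunit of Tap1 in the transporter, at 11.9 and 15.8 CPM (log2 0.40, 0.30 to 0.51). Psmb7, a constitutive proteasome subunit, was at 56.2 and 63.0 CPM (log2 0.17). The lowest ratios were those of endoplasmic reticulum chaperones that act on many proteins: Calr (calreticulin) was at 361 and 193 CPM (log2 -0.90, -0.93 to -0.88) and Pdia3, which is bound to tapasin in the loading complex, at 146 and 107 CPM (log2 -0.45, -0.48 to -0.41). Both TAP subunits thus had ratios above 0.32, the interval of tapasin spanned 0, and these chaperones had ratios below -0.32.

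Among 27 measured regulators and interferon signalling genes, 4 were higher, 4 lower and the median was 0.04, close to all genes. Relb, an NF-kB subunit, was at 5.93 and 8.47 CPM (log2 0.52), and Irf9, part of the factor that type I interferon activates, at 12.7 and 16.8 CPM (log2 0.40). Nfkbia, an inhibitor and target of NF-kB, was at 50.7 and 37.0 CPM (log2 -0.46), and Stat3 at 134 and 97.9 CPM (log2 -0.45). Of 9 measured interferon-induced genes, out of 26 in the list, 5 were higher and none lower, with a median of 0.36. The others did not reach 5 CPM, and Ifitm3 reached it only through the library labelled IPKO, so its place in this count was set in part by that filter. Ifi27l2a was at 5.18 and 129 CPM (log2 4.64) and Ifitm3 at 2.75 and 9.48 CPM (log2 1.79), while Ifitm2 (log2 0.13) and Parp14 (log2 0.12) had ratios closer to 1. Class II genes had a median of 0.64, and 7 of 7 measured ones passed 0.32, of which Ciita likewise reached 5 CPM only through the library labelled IPKO. Ciita, the class II master regulator, was at 3.97 and 6.55 CPM (log2 0.72), H2-Eb1 at 152 and 247 CPM (0.70), H2-DMa at 36.0 and 52.9 CPM (0.56) and H2-DMb1 at 52.0 and 72.8 CPM (0.49).

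**Figure D5:**
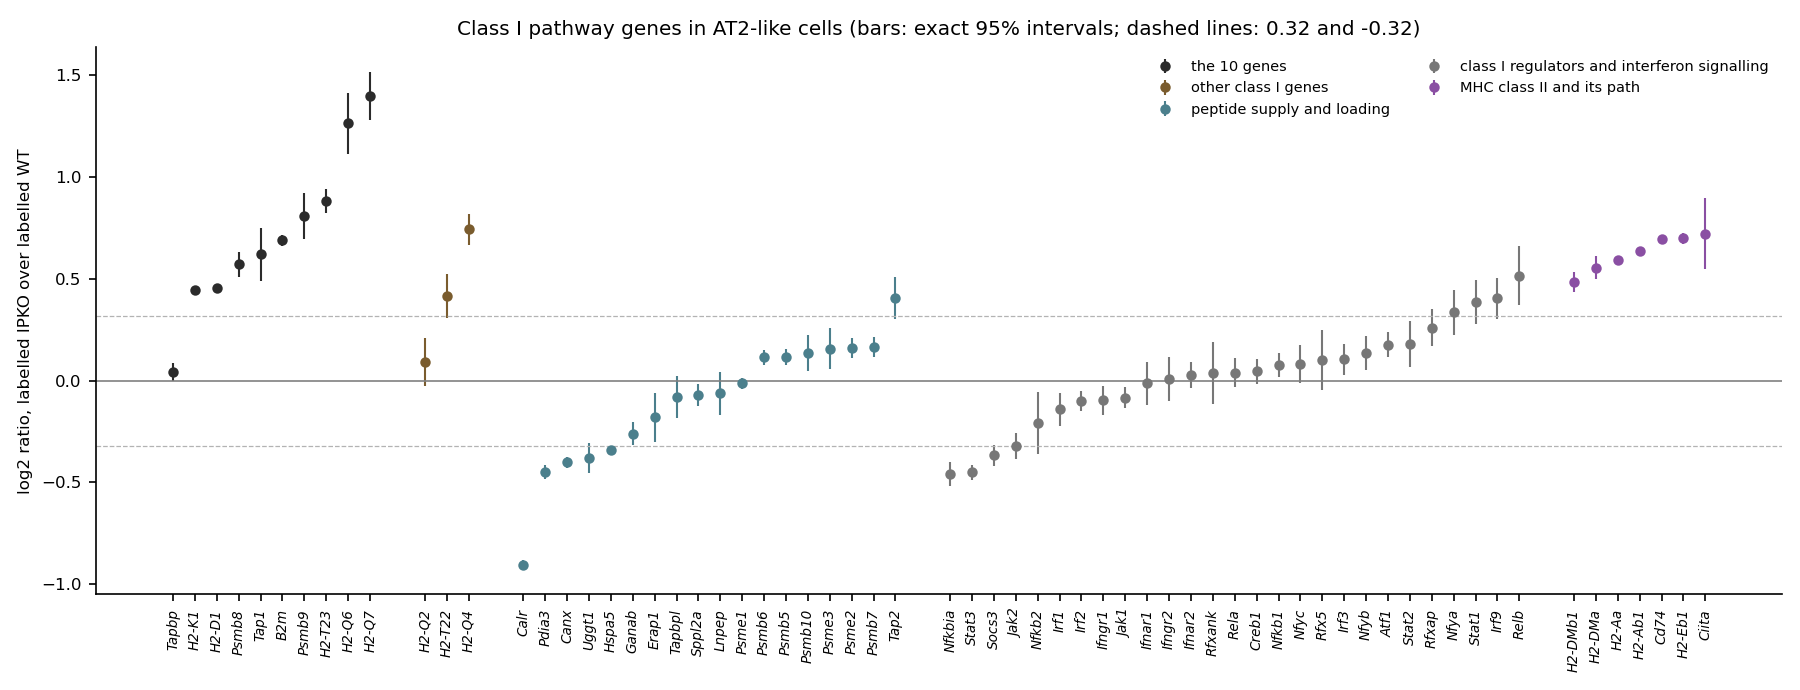
Log2 ratio between the libraries in AT2-like cells (y axis, labelled IPKO over labelled WT) for the 10 genes and for 4 lists of related genes, with exact 95% counting intervals and dashed lines at 0.32 and -0.32. The 10 genes and class II lie mostly above the upper line, while peptide supply genes range from -0.90 (Calr) to 0.40 (Tap2).

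Across cell classes the 10 genes shared a pattern, with an exception. Over 22 points (a class of at least 10 cells in a library), each gene's standardised level, log2 of CPM plus 5, was compared with the mean of the other 9. Pearson's r was 0.96 for H2-K1, 0.94 for H2-D1, 0.93 for Psmb9, 0.92 for H2-T23, 0.91 for B2m, 0.90 for Psmb8 and Tap1, 0.88 for H2-Q7 and 0.82 for H2-Q6. Tapbp was at 0.38. Among 2649 other genes, the 6 most like the mean of the 10 were Mndal (0.92), Pde4b (0.92), Psmb10 (0.90), Pitpnc1 (0.89), Psme2 (0.89) and Klf2 (0.88). Psmb10, which codes for another immunoproteasome subunit, was at 18.7 and 20.5 CPM in AT2-like cells and 230 and 297 CPM in endothelial-like cells. Psme2, a subunit of the proteasome activator PA28, was at 59.4 and 66.4 CPM and at 230 and 282 CPM. Their log2 ratios in AT2-like cells, 0.14 and 0.16, were below 0.32. The points share libraries, depth and free RNA and differ widely in UMIs, so these values are a description only.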

How the data were processed

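Cells were profiled with the 10x Genomics Chromium 3' kit (v3.1 per the labels' protocols), and the authors deposited whole-number UMI counts for each gene in each barcode. Cell Ranger 4.0.0 and GRCm38 (mm10) are named per the submitters' processing notes; which annotation was used is not given there. Groups follow the genotype label. The 10 genes and all gene lists and markers were chosen with earlier results of these data known. Named beside the 10 genes were the 2 highest and 2 lowest ratios of each list in AT2-like cells, the 6 genes most alike across classes, and Ptgir.

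Barcodes with under 500 genes or over 20% mitochondrial UMIs were removed. Scrublet called 1 and 2 doublets (0.0148% and 0.0248%), so it did not work. Cells were clustered together with scanpy 1.11.5 (2000 variable genes, 30 components, 15 neighbours, Leiden resolution 0.5) without the 10 genes, other class I genes and peptide supply genes. Clusters took a type's name if 3 or more of the 10 genes leading them belonged to that type's marker list, and were AT2-like when AT2 markers reached 50% of their overall level; small clusters were divided again at resolution 1, chosen after seeing the data. Rebuilt names may differ from the authors'. Counts were summed per class and library and given as CPM, with exact conditional binomial (ratios), Poisson (levels) and Clopper-Pearson (shares) 95% intervals; 0 UMIs were set at 3 counts. A ratio was counted at log2 0.32 (strict 0.58) between libraries for genes of at least 5 CPM (50 CPM outside AT2-like, transitional-like and low-RNA cells) and at 1 between classes. The ratio script was tested on simulated counts. Promoters are RefSeq's, and 27645 of 27998 genes (98.7%) were found in GENCODE vM21; without strand information in the sources used here, Tap1 and Psmb9 reads in their overlap cannot be told apart.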

Additional observations from a re-analysis of the deposited data

How the results depend on the processing

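No paired analysis was possible because each group holds 1 library, so the groups share fewer than 2 replicate numbers. Over 16 other settings for AT2-like cells, the median log2 ratio of the 10 genes ran from 0.51 to 0.70. The upper end takes all kept cells in place of AT2-like cells, and another setting pools AT2-like, transitional-like and low-RNA cells (0.62). It was 0.58 with median-of-ratios size factors. It was 0.51, with 5 genes higher, when at least 20 CPM was required, which kept 6 of the genes. Endothelial-like cells over AT2-like cells gave a median of 2.79 labelled IPKO when each library was clustered alone. With totals that leave out AT2 markers, mitochondrially encoded genes and Gm42418 (added after seeing the data), the medians over AT2-like cells were 3.10 and 2.76 for endothelial-like cells and 1.48 and 2.22 for the immune pool, labelled WT and IPKO. Between the libraries in transitional-like cells, the median was 0.33 with the 10 genes in the clustering, 0.46 with 9 genes higher when each library was clustered alone, 0.42 with at least 1000 genes per cell, and -0.055 with 1 gene higher at most 10% mitochondrial UMIs, where H2-Q7 turned to -0.067; these were added after seeing the data and the cause was not tested. The other 80 medians and counts stayed within the median lower and upper bounds of the 10 genes' counting intervals or within 1.5 times the reported count. Of the values of single genes, which include shares of cells at other depths, 344 stayed within the reported interval. Another 161 moved outside it, and 1 value that had passed its call size turned sign. Sign turns of values below that size, as for Tapbp in AT2-like cells, are not in that count of 1. Classes of few cells are limited by depth: 177961 and 195065 UMIs in endothelial-like cells.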

Other observations

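Barcodes removed by the filters, with medians of 1113 and 954 UMIs, also held these transcripts. Summed over the 10 genes, the 2180 removed barcodes labelled WT were at 469 CPM and the 1944 labelled IPKO at 786 CPM, against 1248 and 1756 CPM in AT2-like cells. H2-K1 was at 173 and 299 CPM, B2m at 72.4 and 134 CPM and H2-Q7 at 7.79 and 17.1 CPM in the removed barcodes. H2-Q7 was thus at about its AT2-like level there, while H2-K1 and B2m were below theirs.

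Low-RNA cells, 240 and 375 barcodes led by mitochondrial and nuclear transcripts, had H2-K1 at 341 and 422 CPM (log2 0.31, 0.15 to 0.46), H2-D1 at 231 and 321 CPM (0.47, 0.29 to 0.66) and H2-Q7 at 6.75 and 17.5 CPM (1.37, 0.37 to 2.49). Their Tapbp level was 63.8 and 65.3 CPM (log2 0.03, -0.35 to 0.41).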
